A study of Mus musculus with 26 samples.

Results

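Leptin infused into the brain was compared with vehicle infused into the brain in the livers of leptin-deficient ob/ob mice. The samples were chosen by their titles. All 4 arrays of the LEP-ICV group were set against all 4 of the VEH-ICV group, 8 of the 26 arrays of the series, and every detected probe was tested. The mice were females on the C57BL6 background, grouped at 15 weeks of age, and all lacked functional leptin. Each carried a cannula in a lateral cerebral ventricle fed by a minipump for 12 days, with leptin at 1.5 µg/d in LEP-ICV and artificial cerebrospinal fluid in VEH-ICV. The LEP-ICV mice were those that had lost weight. Further mice given the same dose that did not lose weight form another group (LEP-ICVN), which was not part of the comparison. Their arrays entered the fit only through the estimate of spread. Food was freely available before the infusion, and no group was fed to match the lower food intake under leptin, so leptin and eating less cannot be told apart in these samples. Each array held total liver RNA of 1 mouse. In such RNA, fewer cells of a type and less RNA per cell cannot be told apart.

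Leptin is the hormone by which fat tissue reports its stores to the hypothalamus, and its loss gives hyperphagia, obesity, high insulin and a fatty liver. Signals from the hypothalamus reach the liver through food intake, the autonomic nerves and the pituitary and adrenal hormones. Insulin drives the lipogenic program of hepatocytes through Srebf1, sterols hold back cholesterol synthesis through Srebf2, fasting calls on fatty acid oxidation, and a shortage of amino acids acts through Atf4 on genes such as Asns and Fgf21.

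Signals were background-corrected and quantile-normalized, and are given as log2 values. A change is LEP-ICV minus VEH-ICV on that scale, with its standard error (SE). Testing was limited to probes detected (p under 0.01) on 4 or more of the 26 arrays, and a gene was represented by its brightest tested probe, which gave 7953 genes. The 6 groups were fitted together in limma over the 26 arrays. They were LEP-ICV, VEH-ICV, LEP-ICVN, subcutaneous leptin, subcutaneous vehicle and C57BL6 baseline mice. Each SE and p-value thus uses a spread pooled over all 6 groups, not that of LEP-ICV and VEH-ICV alone. Genes with a p under 0.05 after Benjamini-Hochberg adjustment across the tested genes are termed called. Where a gene was not detected on any array of a group, its change is given as a lower bound, at least N-fold, against the dimmest signal among detected probes of those arrays or the gene's own signal, whichever was higher. Values of single arrays follow the order VEH_ICV_1002, VEH_ICV_1010, VEH_ICV_1011 and VEH_ICV_1012, then LEP_ICV_1003, LEP_ICV_1014, LEP_ICV_1017 and LEP_ICV_1019, named by the animals' numbers.

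The arrays differed in background. The median signal of probes at mid detection score was 109.3 to 119.4 on the VEH-ICV arrays, and 111 and 113.3 on LEP_ICV_1003 and LEP_ICV_1014. It was 183.9 and 160.8 on LEP_ICV_1017 and LEP_ICV_1019, which belong with 12 arrays of other groups to a high class above 140. The groups overlapped in background (exact two-sided permutation test, p = 0.371, where 0.0286 is the smallest the design allows). Detected probes numbered 7059 to 7992 in VEH-ICV and 7880 to 11117 in LEP-ICV (exact p = 0.0571). Over the probes that passed the detection filter, which are not independent replicates, arrays correlated at r = 0.947 to 0.977 within VEH-ICV and at 0.817 to 0.934 within LEP-ICV. Because only the low class holds both groups, each comparison was repeated on the 12 low-background arrays, which leave LEP_ICV_1003 and LEP_ICV_1014 against all VEH-ICV mice. The other arrays of the repeat, of subcutaneous vehicle and LEP-ICVN, entered only the spread. The repeat shares its arrays with the full comparison and is no independent test. A call given below without its low-background result need not hold there.

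Under brain leptin 14 of 18 cholesterol synthesis genes, 24 of 31 amino acid breakdown genes and 10 of 20 glutathione transferases were called lower, against 12% of all tested genes. Of 15 Kupffer cell and macrophage genes 12 were called higher, as were 8 of 21 amino acid response genes and 12 of 26 fatty acid oxidation genes, against 13.9% of all. Of 7953 genes, 1108 were called higher (13.9%) and 952 lower (12%), together 25.9%, and 1321 of the called genes changed by over 1 on the log2 scale. Numbers called in each list below are to be read beside these shares, and some lists lie near them. The groups did not overlap for 1245 of the 2060 called genes, and for 1495 of all tested genes (18.8%, with 9.91% higher and 8.89% lower). Of the called genes, 283 were undetected on every VEH-ICV array and 61 on every LEP-ICV array. The sizes of those changes were not measured. On low-background arrays 250 genes were called higher (3.14%) and 232 lower (2.92%), and 456 of these 482 (6.06%) were called with the same sign on all arrays. With the background class as a block 601 genes were called higher (7.56%) and 446 lower (5.61%). With the spread taken from the 8 compared arrays alone, 291 of the 7953 were called higher and 253 lower. Without LEP_ICV_1017 the counts were 720 and 511, and with each array scaled to its median signal in place of quantiles they were 1586 and 286, where the median change over all genes was 0.48 in place of 0.01. Of the called genes named here, 20 lost their call under 10 or more of up to 22 other settings. They were Cdkn1a, Chac1, Cyp7b1, Elovl3, Gabarap, Gapdh, Gckr, Gsk3b, Gstm5, Lcn2, Lipa, Lum, Pik3c3, Reln, Slc11a2, Slco1b2, Sqle, Srebf1, Vldlr and Wipi1.

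**Figure D1:**
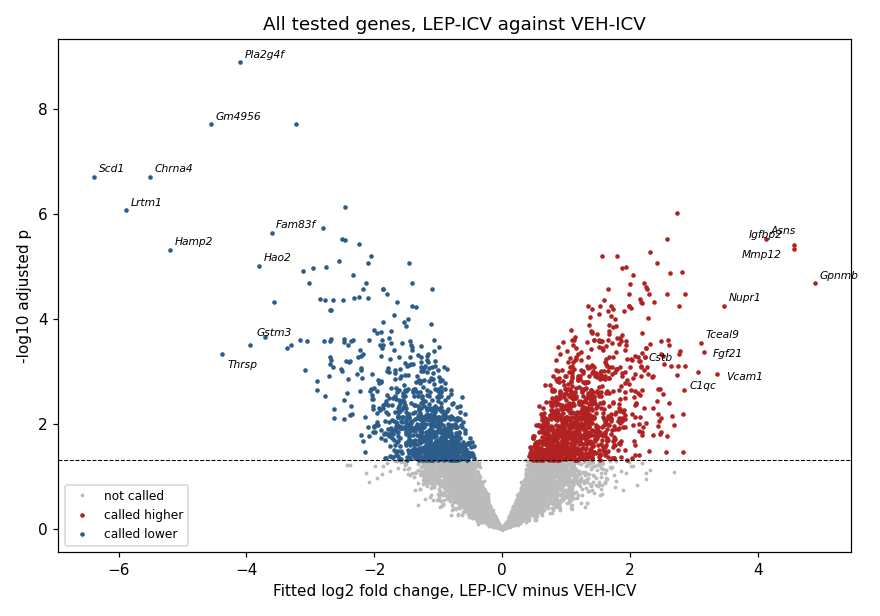
Each point is a tested gene, with its fitted log2 fold change (LEP-ICV minus VEH-ICV) on the x axis and −log10 of its adjusted p on the y axis. The dashed line marks an adjusted p of 0.05. Scd1 lies farthest to the left and Gpnmb farthest to the right, and fitted changes of genes undetected in a group are not bounds.

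The mice were not alike in how far they stood from vehicle. Of the genes called higher, LEP_ICV_1014 lay above all VEH-ICV arrays in 97.6%, LEP_ICV_1017 in 95.7% and LEP_ICV_1019 in 91.1%, and LEP_ICV_1003 in 68.6%. Of the genes called lower, LEP_ICV_1003 lay below all VEH-ICV arrays in 72.4%, and the other LEP-ICV arrays in 90.9% to 97.1%. These shares describe the values that made the calls. LEP_ICV_1003 was the nearest to vehicle of the treated livers, and it makes up 1 of the 2 treated arrays in the low-background repeat.

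The promoters below are shown because several of the amino acid response genes called higher share a short element there. Windows of 250 bases before to 50 bases after each gene start (RefSeq, GRCm38.p6) were searched on both strands for TGATGNAAN, the core of the amino acid response element to which Atf4 binds. It was found in 6 of the 18 amino acid response genes matched to a window (33.3%), against 1215 of 27025 genes in all (4.5%). The 6 genes were Asns, Nupr1, Fgf21, Atf3, Chac1 and Vldlr. The list was made of genes known for this response, with earlier results of these data known, so its larger share is no test. The 250 bases before each start are given 5′ to 3′ on the gene's strand, with the match in capitals.
Asns (chr6:7693210-7693459, minus strand, called higher): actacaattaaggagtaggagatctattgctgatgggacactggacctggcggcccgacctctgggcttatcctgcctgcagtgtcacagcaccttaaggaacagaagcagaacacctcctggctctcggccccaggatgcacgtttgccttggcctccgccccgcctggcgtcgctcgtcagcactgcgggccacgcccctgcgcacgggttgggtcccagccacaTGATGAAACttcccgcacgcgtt
Nupr1 (chr7:126625471-126625720, minus strand, called higher): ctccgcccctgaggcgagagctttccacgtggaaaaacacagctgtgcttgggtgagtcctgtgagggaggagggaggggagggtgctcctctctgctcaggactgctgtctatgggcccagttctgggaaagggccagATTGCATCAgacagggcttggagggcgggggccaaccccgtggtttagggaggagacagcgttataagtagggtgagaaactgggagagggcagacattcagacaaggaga
Fgf21 (chr7:45615491-45615740, minus strand, called higher): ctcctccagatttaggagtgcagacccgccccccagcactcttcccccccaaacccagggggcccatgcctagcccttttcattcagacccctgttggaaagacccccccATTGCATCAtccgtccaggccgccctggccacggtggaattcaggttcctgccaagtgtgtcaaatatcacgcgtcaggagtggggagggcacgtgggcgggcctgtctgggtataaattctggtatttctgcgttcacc
Atf3 (chr1:191183334-191183583, minus strand, called higher): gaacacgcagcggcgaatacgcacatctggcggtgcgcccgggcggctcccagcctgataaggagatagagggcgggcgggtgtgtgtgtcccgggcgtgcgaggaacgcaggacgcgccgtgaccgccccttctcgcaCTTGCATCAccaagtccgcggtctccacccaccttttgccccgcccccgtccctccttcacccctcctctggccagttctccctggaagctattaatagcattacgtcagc
Chac1 (chr2:119350992-119351241, plus strand, called higher): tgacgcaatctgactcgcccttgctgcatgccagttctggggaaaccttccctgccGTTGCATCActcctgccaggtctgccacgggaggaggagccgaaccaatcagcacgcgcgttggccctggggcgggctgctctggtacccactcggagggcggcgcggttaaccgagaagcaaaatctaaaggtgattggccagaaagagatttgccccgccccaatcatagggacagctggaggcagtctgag
Vldlr (chr19:27216770-27217019, plus strand, called lower): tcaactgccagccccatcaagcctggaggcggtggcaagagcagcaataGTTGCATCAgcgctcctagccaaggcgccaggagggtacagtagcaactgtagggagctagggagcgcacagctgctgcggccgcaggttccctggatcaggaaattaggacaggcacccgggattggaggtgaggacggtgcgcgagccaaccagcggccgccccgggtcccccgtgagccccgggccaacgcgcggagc
In Asns the match read TGATGAAAC, 23 bases before the start, and in the others it lay on the opposite strand, 111 to 201 bases before. In Fgf21 and Nupr1 the letters were the same, ATTGCATCA. A match is a description of these letters, and whether a factor bound there was not measured.

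Asns, which makes asparagine, was not detected on any VEH-ICV array, at 5.42, 4.97, 5.66 and 5.55, and was detected on every LEP-ICV array, at 8.25, 11.31, 9.12 and 9.43. All treated livers were above all control livers, LEP_ICV_1003 by the least, and Asns was at least 5.82-fold higher (limma, adjusted p = 2.98e-06). Nupr1, a stress-induced chromatin protein, read 7.49, 7.81, 7.45 and 6.88 in VEH-ICV and 9.86, 11.59, 11.60 and 10.48 in LEP-ICV, a rise of 3.47 (SE 0.51, adjusted p = 5.65e-05). The groups were again apart, and the low-background estimate was 3.32 (adjusted p = 0.0283). Fgf21, the liver hormone of fasting and protein restriction, read 9.76, 10.34, 8.43 and 9.17 under vehicle and 11.66, 13.46, 11.90 and 13.28 under leptin. It rose by 3.15 (SE 0.57, adjusted p = 0.000427), with every leptin value above every vehicle value. Atf3, a transcription factor of the same response, was undetected in VEH-ICV at 4.95 to 5.66 and stood at 7.33, 8.81, 8.06 and 8.33 in LEP-ICV, at least 2.22-fold higher (adjusted p = 1.25e-05).

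Of 21 tested genes of this response, 8 were called higher and 2 lower, with a median change of 0.51. On low-background arrays 7 were called higher, all of the 8 but Psat1. The others called higher were Aldh18a1 of proline synthesis, at least 1.48-fold (adjusted p = 0.00027), Psat1 of serine synthesis, at least 1.55-fold (adjusted p = 0.000795), the glycogen-binding protein Stbd1 (1.39, SE 0.33, adjusted p = 0.00407) and Chac1, which degrades glutathione (1.34, SE 0.47, adjusted p = 0.0402). Psat1 spread widely among the treated livers, at 5.35, 9.33, 8.96 and 6.85, where LEP_ICV_1003 lay 0.43 above the highest control. The serine hydroxymethyltransferase Shmt2 (-1.31, SE 0.34, adjusted p = 0.00791) and the lipoprotein receptor Vldlr (-1.11, SE 0.37, adjusted p = 0.0317) fell. Atf4, the factor that drives the response and is itself controlled largely by translation, changed by 1.21 without passing the test (SE 0.64, adjusted p = 0.154), detected on 2 arrays of each group. Ddit3, which codes for Chop, changed by 0.51 (SE 0.39, adjusted p = 0.32). Trib3, another target, was below the detection limit for testing.

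Folding helpers were called higher in part. Among 18 endoplasmic reticulum chaperone and unfolded protein response genes, 5 were called higher (3 on low-background arrays) and none lower (at an unadjusted p under 0.05, 1 was lower). They were the splicing-activated factor Xbp1 (0.88, SE 0.15, adjusted p = 0.000338), the chaperones Hsp90b1 (1.11, SE 0.19, adjusted p = 0.000314), Creld2 (1.21, SE 0.31, adjusted p = 0.00774) and Pdia6 (0.85, SE 0.26, adjusted p = 0.0191), and Sec61b of the translocon. Sec61b was undetected in VEH-ICV, at 5.09 to 5.99, and its 5.97 to 7.85 in LEP-ICV gave no fold above its bound. The central chaperone Hspa5 changed by 0.66 (SE 0.39, adjusted p = 0.207). Among 15 heat shock genes of the cytosol and mitochondria 5 were called higher (4 on low-background arrays) and none lower, led by Ahsa1, which activates Hsp90 (2.23, SE 0.41, adjusted p = 0.00054), and the mitochondrial chaperonin Hspd1 (1.5, SE 0.33, adjusted p = 0.00255). Stip1 (1.26, adjusted p = 0.0243), Hspb1 (1.22, adjusted p = 0.0423) and Chordc1 (0.68, adjusted p = 0.0145) were the others. Hspa8, the constitutive Hsc70, changed by 0.00 (SE 0.21, adjusted p = 0.997).

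Lipogenic genes were called lower, and Scd1 had the largest fitted fall of the tested genes. Scd1, the desaturase that makes monounsaturated fatty acids, read 15.75, 15.90, 15.77 and 15.71 in VEH-ICV, on 2 arrays close to the brightest signal of the array, and 10.46, 10.25, 8.47 and 8.44 in LEP-ICV. It fell by 6.38 (SE 0.59, adjusted p = 1.94e-07), with no overlap. The high-background arrays LEP_ICV_1017 and LEP_ICV_1019 had the lowest values, and on low-background arrays the fall was 5.43 (adjusted p = 1.42e-08). Thrsp, a nuclear regulator of lipogenesis, read 10.86, 10.98, 10.30 and 9.38 against 7.55, 5.55, 5.55 and 5.34, so LEP_ICV_1003 stood 2.0 above the other treated livers and was still below every control. Thrsp fell by 4.38 (SE 0.79, adjusted p = 0.000466). It was detected on 1 LEP-ICV array and on 4 VEH-ICV arrays. The sizes of this fall and of the gap of 2.0 thus rest partly on signals below detection. Acss2, which activates acetate, fell by 3.12 (SE 0.40, adjusted p = 1.23e-05), from 12.58 to 13.01 in VEH-ICV to 9.02 to 10.08 in LEP-ICV.

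Of 25 fatty acid and triglyceride synthesis genes, 12 were called lower and 1 higher, with a median change of -0.84, and on low-background arrays 6 were called lower and none higher. The regulator Srebf1 fell by 1.82 (SE 0.66, adjusted p = 0.0456) and was detected on 1 LEP-ICV array and 3 VEH-ICV arrays. That call was lost on low-background arrays (-1.65, adjusted p = 0.187) and under most other settings. Acly, which supplies cytosolic acetyl-CoA, fell by 1.5 (SE 0.44, adjusted p = 0.0157) and Acaca, the first committed step, fell by 0.84 (SE 0.23, adjusted p = 0.0101), the latter not called on low-background arrays (adjusted p = 0.189). Fasn was read by a dim probe, undetected in LEP-ICV and detected on 1 VEH-ICV array, and its difference, at least 1.25-fold lower, did not pass (adjusted p = 0.0827). Mlxipl, the sugar-sensing factor ChREBP, changed by -0.48 (adjusted p = 0.288). The gene called higher was the acyltransferase Gpat3 (2.43, SE 0.53, adjusted p = 0.00219), at 7.02, 8.85, 10.02 and 9.33 in LEP-ICV, where LEP_ICV_1003 stood beside the highest control at 6.94, and it was not called on low-background arrays (1.56, adjusted p = 0.113).

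Cholesterol synthesis and uptake genes had a median change of -1.88. Of 18 tested, 14 were called lower and none higher, and on low-background arrays 11 were called lower. Mvd, which makes isopentenyl diphosphate, read 9.36, 9.74, 9.62 and 9.19 in VEH-ICV and 7.30, 5.97, 5.48 and 4.88 in LEP-ICV. It fell by 3.57 (SE 0.52, adjusted p = 4.68e-05), with LEP_ICV_1003 the highest of the treated livers. Idi1, the next enzyme, stood at 10.11, 10.15, 10.50 and 10.11 against 9.42, 6.40, 5.38 and 6.46, and LEP_ICV_1003 was close to the controls. Its fall of 3.30 (SE 0.57, adjusted p = 0.000314) was 2.31 on low-background arrays, where the test was not passed (adjusted p = 0.0509).

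The sterol carrier Stard4 fell by 2.96 (SE 0.38, adjusted p = 1.08e-05) and Insig1, the sterol-sensing retention protein, fell by 2.89 (SE 0.60, adjusted p = 0.0015). Insig1 was not called on low-background arrays. Hmgcs1, at the entry of the pathway, fell by 1.76 (SE 0.29, adjusted p = 0.000228), from 15.39 to 15.70 in VEH-ICV to 13.10 to 14.62 in LEP-ICV, and the rate-setting Sqle fell by 1.48 (SE 0.53, adjusted p = 0.0435), a call that was lost under 14 of 22 other settings. Srebf2, their regulator, changed by -0.86 without passing the test (SE 0.40, adjusted p = 0.11). The sterol regulatory element TCACNCCAC was searched on both strands in the same windows. It was in 1 of the 15 cholesterol genes with a window (6.67%), Hmgcs1, against 1.44% of all 27025 genes. This share rests on 1 gene of a list made with earlier results known, and is no test. The element lay 137 bases before the start in the 250 bases shown here, with the match in capitals.
Hmgcs1 (chr13:119690101-119690350, plus strand, called lower): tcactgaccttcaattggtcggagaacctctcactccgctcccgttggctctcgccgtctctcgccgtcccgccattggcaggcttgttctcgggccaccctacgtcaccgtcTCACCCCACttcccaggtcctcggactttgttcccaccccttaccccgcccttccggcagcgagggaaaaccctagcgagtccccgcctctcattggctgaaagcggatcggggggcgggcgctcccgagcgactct

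Fatty acid oxidation and ketogenesis genes had a median change of 0.85. Of 26 tested, 12 were called higher and none lower, and 4 were called higher on low-background arrays. Hadhb, the thiolase subunit of the mitochondrial trifunctional protein, read 11.29, 10.58, 11.10 and 10.81 in VEH-ICV and 11.75, 13.35, 13.07 and 12.51 in LEP-ICV. It rose by 1.73 (SE 0.35, adjusted p = 0.00114), with no overlap. Pdk4, the kinase that shuts pyruvate oxidation in fasting, read 8.38, 7.61, 7.19 and 7.41 against 7.57, 12.07, 12.09 and 9.58. LEP_ICV_1003 lay within the controls and the other treated livers were above, and the rise of 2.68 (SE 0.74, adjusted p = 0.0105) was not called on low-background arrays (adjusted p = 0.151). Acot1, a cytosolic thioesterase, rose by 2.61 (SE 0.62, adjusted p = 0.00401) and Acadm, the medium-chain dehydrogenase, rose by 1.48 (SE 0.43, adjusted p = 0.0142), though the tested probes of Acadm disagreed in direction. Acadm was not called on low-background arrays (0.90, adjusted p = 0.144) or with the block (0.72, adjusted p = 0.161). Acot1 was also not called on low-background arrays. Ppara, the receptor that induces these genes, changed by -0.04 (SE 0.46, adjusted p = 0.946). Among 15 lipid droplet and PPARgamma target genes, the lipoprotein lipase Lpl rose by 2.17 (SE 0.31, adjusted p = 4.68e-05) and Vldlr fell, and Pparg (0.27, adjusted p = 0.323), Cidec (1.0, adjusted p = 0.074), Plin2 (2.25, adjusted p = 0.0854) and the triglyceride lipase Pnpla2 (0.50, adjusted p = 0.0765) did not pass.

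**Figure D2:**
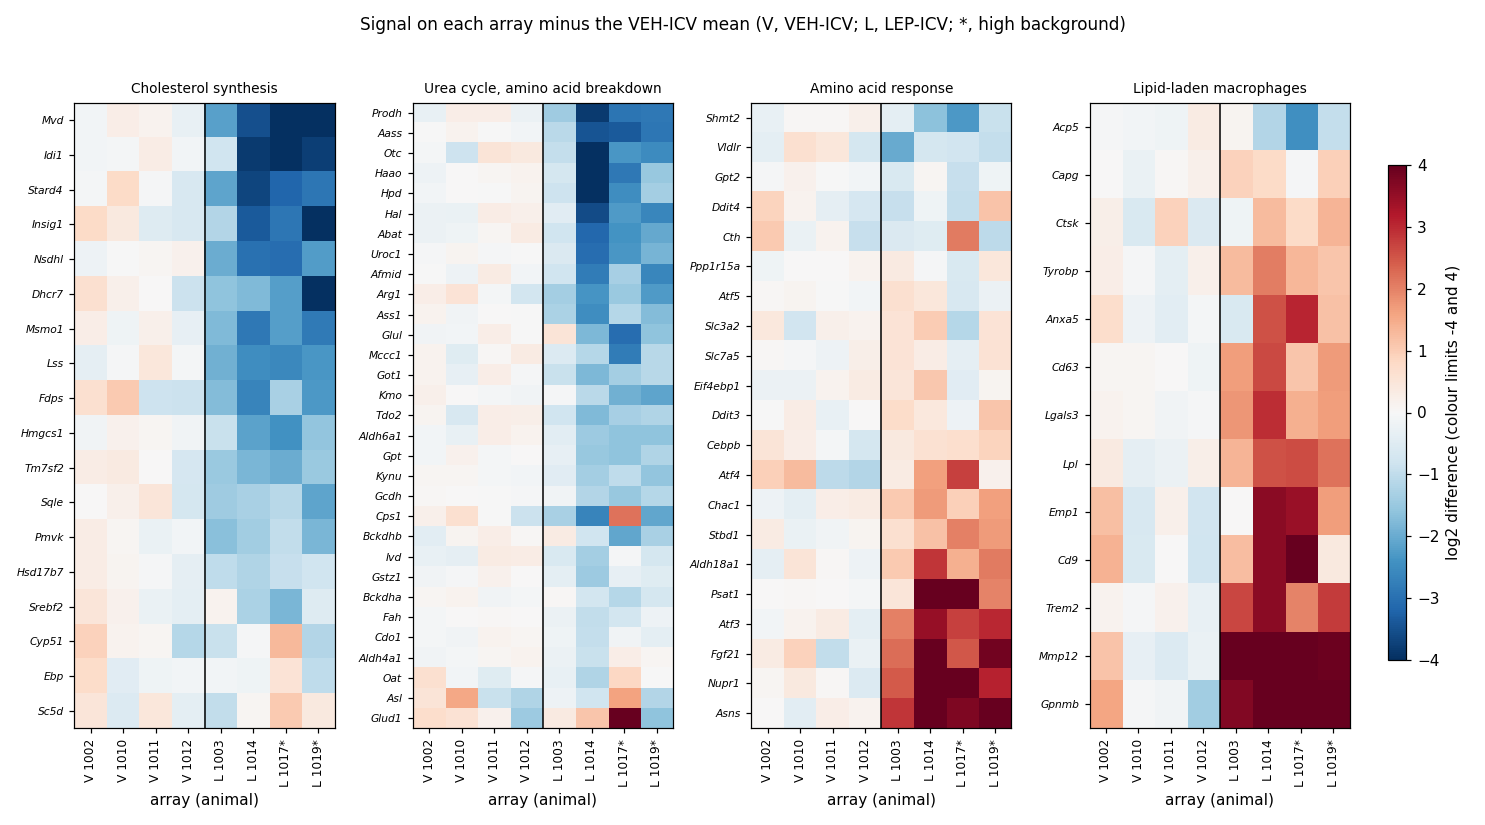
Each row is a tested gene of a list and each column an array, and colour gives the log2 signal minus the VEH-ICV mean, limited at -4 and 4. Asterisks mark the high-background arrays. Columns LEP_ICV_1014, LEP_ICV_1017 and LEP_ICV_1019 (L and number) are deep in colour in the cholesterol, amino acid breakdown and macrophage panels, and LEP_ICV_1003 is paler.

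Urea cycle and amino acid breakdown genes had a median change of -1.28. Of 31 tested, 24 were called lower and none higher, 8 of the 31 were called lower on low-background arrays, and 20 without LEP_ICV_1017. Prodh, the first enzyme of proline oxidation, read 10.90, 11.47, 11.47 and 10.97 in VEH-ICV and 9.79, 7.38, 8.27 and 8.34 in LEP-ICV. It fell by 2.76 (SE 0.35, adjusted p = 1.01e-05), with LEP_ICV_1003 the least changed. Aass of lysine breakdown fell by 2.69 (SE 0.40, adjusted p = 6.65e-05) and Haao of the kynurenine pathway fell by 2.40 (SE 0.45, adjusted p = 0.000661). In the urea cycle, Otc fell by 2.48 (SE 0.41, adjusted p = 0.000241), Arg1 fell by 1.87 (SE 0.26, adjusted p = 2.67e-05) and Ass1 fell by 1.65 (SE 0.24, adjusted p = 4.8e-05). Neither Otc nor Haao was called on low-background arrays. Arg1, the arginase that releases urea, stood at 14 to 15.27 in VEH-ICV and at 13.37, 12.36, 13.25 and 12.46 in LEP-ICV. Cps1, the entry enzyme of the cycle, read 10.95, 11.38, 10.71 and 9.87 against 9.45, 8.08, 12.89 and 8.64. LEP_ICV_1017 stood above all controls and the other treated livers below them. Over all arrays its change was -0.96 (SE 0.81, adjusted p = 0.379), and on low-background arrays, which leave out LEP_ICV_1017, it was called lower (-1.96, adjusted p = 0.0392).

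Methionine, methyl group and one-carbon enzymes were called lower in 8 of 19 (7 on low-background arrays) and higher in none, with a median change of -0.53. Sardh, the sarcosine dehydrogenase, read 11.47, 11.38, 12.08 and 12.22 in VEH-ICV and 10.58, 8.05, 7.38 and 8.94 in LEP-ICV, and it fell by 3.05 (SE 0.52, adjusted p = 0.00027). Nnmt, which methylates nicotinamide, read 14.43, 14.28, 14.36 and 14.23 against 13.82, 9.16, 12.03 and 12.85, so that the treated livers spread over 4.66 and the controls over 0.20. Its fall of 2.36 (SE 0.57, adjusted p = 0.00458) was not called on low-background arrays (-2.83, adjusted p = 0.083). Ahcy, which clears S-adenosylhomocysteine, fell by 2.64 (SE 0.38, adjusted p = 4.36e-05) and Bhmt, which remethylates homocysteine, fell by 2.17 (SE 0.39, adjusted p = 0.000475). Gnmt, the main user of excess methyl groups, changed by -1.13 (adjusted p = 0.247), with LEP_ICV_1017 at 12.54 above every control, and was called lower on low-background arrays (-2.25, adjusted p = 0.0248). Mat1a, the liver's S-adenosylmethionine synthetase, changed by -0.22 (SE 0.14, adjusted p = 0.251).

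Glycolysis and gluconeogenesis genes were called in both directions. Of 17 tested, 4 were called lower and 2 higher, with a median change of -0.31. Over all tested genes 12% were called lower and 13.9% higher. Pck1, the first committed enzyme of gluconeogenesis, read 12.45, 12.12, 12.84 and 12.38 in VEH-ICV and 12.04, 10.36, 8.91 and 9.64 in LEP-ICV. It fell by 2.21 (SE 0.66, adjusted p = 0.0166), and LEP_ICV_1003 lay 0.08 under the lowest control. Slc37a4, which carries glucose 6-phosphate into the endoplasmic reticulum, fell by 2.63 (SE 0.69, adjusted p = 0.00786), Gckr, the glucokinase regulator, fell by 1.11 (SE 0.36, adjusted p = 0.027) and Gapdh fell by 0.47 (SE 0.16, adjusted p = 0.0395). Ldha (1.91, SE 0.40, adjusted p = 0.00164) and the gluconeogenic Fbp1 (1.24, SE 0.38, adjusted p = 0.0188) rose. G6pc, the last step of glucose output, changed by 0.05 (SE 0.38, adjusted p = 0.934), and the dim Pklr, whose probes disagreed, by -1.08 (adjusted p = 0.112). On low-background arrays Pklr was the 1 gene of the list called (-1.34, adjusted p = 0.0404). Among 10 insulin signalling genes Irs1 (-1.35, SE 0.28, adjusted p = 0.0016) and Gsk3b (-0.92, adjusted p = 0.0418) fell. The adaptor Grb10 was at least 1.10-fold higher (adjusted p = 0.00486), and Irs2 changed by -0.64 (SE 0.76, adjusted p = 0.547). None of the 10 was called on low-background arrays.

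Of the 5 tested binding proteins of the insulin-like growth factors, Igfbp1 and Igfbp2 were called higher. Igfbp2 read 8.02, 7.40, 8.67 and 9.57 in VEH-ICV and 12.72, 12.99, 13.64 and 12.59 in LEP-ICV. It rose by 4.57 (SE 0.53, adjusted p = 3.98e-06), the treated livers spread over 1.05, and LEP_ICV_1003 was among them. Igfbp1, which insulin represses, was undetected in VEH-ICV at 5.76 to 6.72 and stood at 7.52, 9.02, 9.19 and 7.39 in LEP-ICV, at least 2.45-fold higher (adjusted p = 0.00262). Of 12 genes of this axis, 3 were called higher and 1 lower. On low-background arrays Igfbp1 and Igfbp2 alone were called higher, and none lower. Egfr, which growth hormone supports in liver, rose by 1.38 (SE 0.36, adjusted p = 0.00774), and the growth hormone receptor Ghr fell by 0.71 (SE 0.19, adjusted p = 0.00839). Igf1 changed by -0.79 (SE 0.30, adjusted p = 0.0565). Of 8 leptin signalling genes, Leprot, which shares its first exons with the leptin receptor and limits its surface level, rose by 1.77 (SE 0.27, adjusted p = 9.85e-05) and the phosphatase Ptpn11 rose by 0.94 (SE 0.24, adjusted p = 0.0062). On low-background arrays Leprot alone of the 8 was called. Socs3, a feedback inhibitor that leptin induces directly, changed by 0.10 (SE 0.41, adjusted p = 0.872). Neither Lep nor Lepr passed the detection limit for testing.

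**Figure D3:**
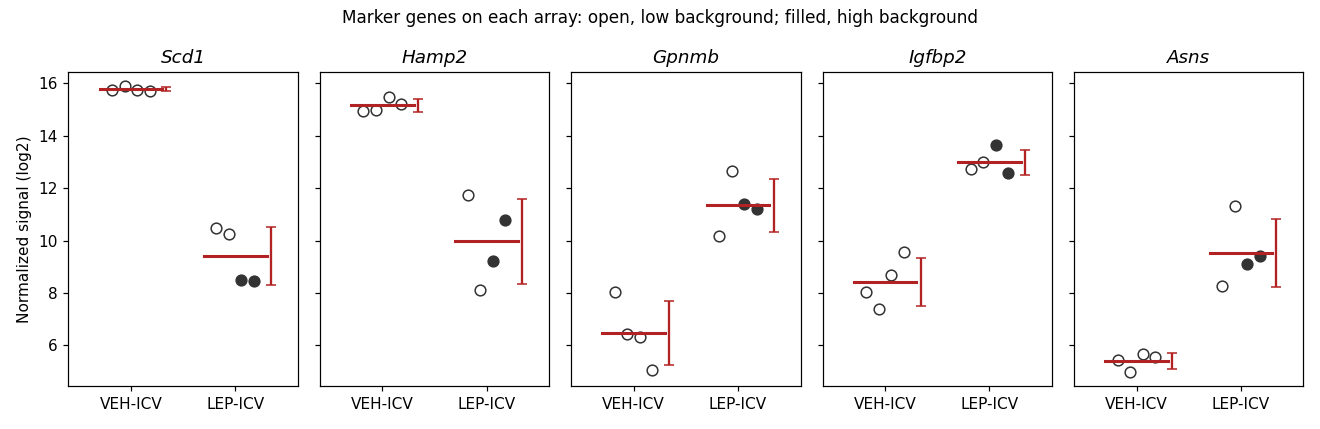
Log2 signal of the 5 marker genes on each array by group, with the mean as a line and the SD as an error bar (n = 4). Open circles are low-background arrays and filled circles high-background arrays, and for all 5 genes the groups do not overlap.

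The iron hormone paralogs differed in their calls. Hamp2, the less studied hepcidin of the mouse, read 14.94, 15, 15.49 and 15.23 in VEH-ICV and 11.75, 8.12, 9.20 and 10.80 in LEP-ICV, and it fell by 5.20 (SE 0.61, adjusted p = 4.78e-06). Hamp, the hepcidin that closes the iron exporter, read 14.75, 14.76, 15.37 and 15.06 against 15.29, 14.71, 13.87 and 14.77, and its change of -0.33 did not pass (SE 0.32, adjusted p = 0.45). The difference between these paralogs was not tested. Of 18 hepcidin and iron handling genes, 4 were called higher and 2 lower (1 and 2 on low-background arrays). The shares of all tested genes were 13.9% and 12%. The exporter itself, Slc40a1, rose by 1.51 (SE 0.26, adjusted p = 0.00027), from 12.47 to 12.77 in VEH-ICV to 13.46 to 14.56 in LEP-ICV. The heme-degrading Hmox1 (2.03, SE 0.52, adjusted p = 0.00655), the importer Slc11a2 (1.06, SE 0.37, adjusted p = 0.0368) and haptoglobin Hp (0.90, SE 0.20, adjusted p = 0.00244) also rose, and Cisd1, an iron-sulfur protein of the outer mitochondrial membrane, fell by 1.46 (SE 0.28, adjusted p = 0.000756). Tfrc, the transferrin receptor, changed by -0.60 (adjusted p = 0.487).

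Genes of lipid-laden and resident macrophages were called higher. Gpnmb, a glycoprotein of lipid-laden macrophages, read 8.03, 6.42, 6.30 and 5.07 in VEH-ICV and 10.16, 12.64, 11.40 and 11.20 in LEP-ICV, a rise of 4.89 (SE 0.66, adjusted p = 2.1e-05). Mmp12, the macrophage elastase, was undetected in VEH-ICV, at 6.73, 5.24, 5.02 and 5.31, and stood at 9.93, 11.15, 9.98 and 9.48 in LEP-ICV, at least 8.87-fold higher (adjusted p = 4.6e-06). The groups were apart for both, and LEP_ICV_1014 had the highest value of each. Trem2, the lipid-sensing receptor of such cells, was undetected in VEH-ICV and at least 2.18-fold higher in LEP-ICV (adjusted p = 5.62e-05), and Lgals3, galectin 3, rose by 1.95 (SE 0.36, adjusted p = 0.000595). Cd9, a tetraspanin, rose by 2.35 (SE 0.70, adjusted p = 0.0166) but read 7.26 and 6.40 on LEP_ICV_1003 and LEP_ICV_1019, under the highest control of 7.39. Of 13 lipid-laden macrophage genes, 10 were called higher and none lower, with a median change of 1.95, and 7 were called on low-background arrays.

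Of 15 genes of Kupffer cells, the resident liver macrophages, and macrophages at large, 12 were called higher and none lower (9 on low-background arrays), with a median change of 1.41. The complement component C1qc was undetected in VEH-ICV at 5.01 to 6.63, stood at 7.55, 9.69, 10.56 and 7.76 in LEP-ICV and was at least 3.74-fold higher (adjusted p = 0.00104). Lyz1, a lysozyme, rose by 2.38 (SE 0.35, adjusted p = 4.85e-05), C1qb rose by 2.14 (SE 0.40, adjusted p = 0.000645) and the complement receptor Vsig4 rose by 1.98 (SE 0.42, adjusted p = 0.00175). Clec4f, a lectin found on Kupffer cells alone in mouse, rose by 0.94 (SE 0.22, adjusted p = 0.00438), from 10.24 to 11.12 in VEH-ICV to 11.39 to 11.89 in LEP-ICV, and was not called on low-background arrays (0.93, adjusted p = 0.101). Of 6 class II antigen presentation genes 5 were called higher (3 on low-background arrays). They were H2-Ab1 (2.25, SE 0.40, adjusted p = 0.000366), the invariant chain Cd74 (1.95, SE 0.40, adjusted p = 0.00148), H2-DMa (1.92, adjusted p = 0.0032), H2-DMb1 (1.56, adjusted p = 0.000366) and H2-Eb1 (1.55, SE 0.38, adjusted p = 0.00508). VEH_ICV_1010 was the lowest control for these genes.

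**Figure D4:**
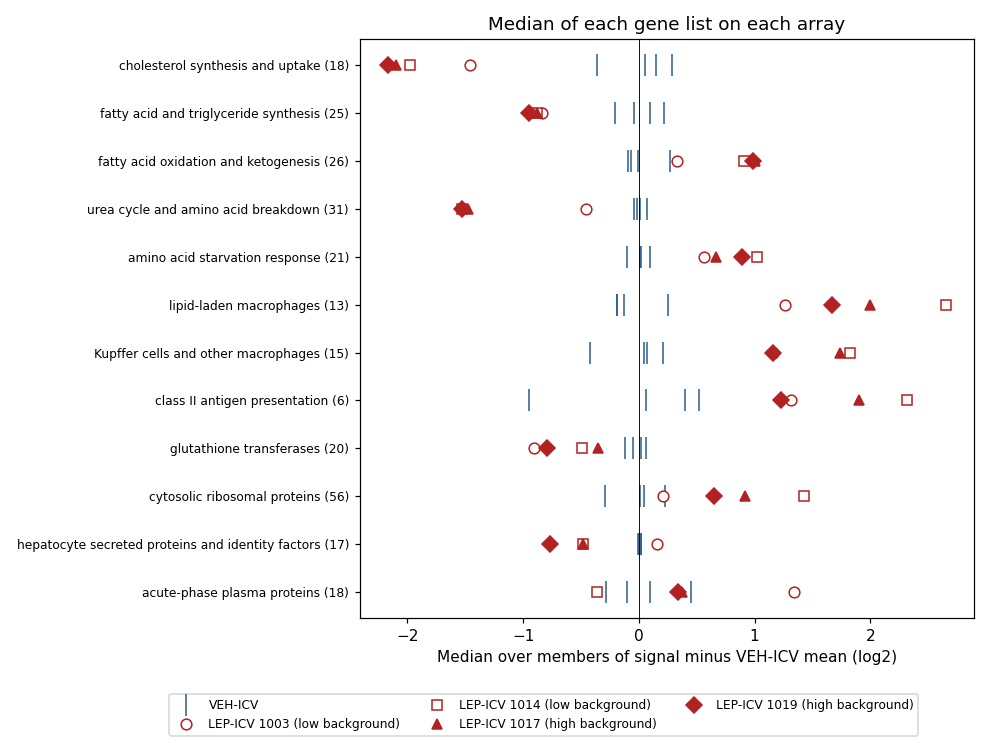
For 12 gene lists (number of tested members in brackets), the median over members of the log2 signal minus the VEH-ICV mean is shown for each array. Blue bars are VEH-ICV arrays and red symbols LEP-ICV mice, filled where background was high. LEP_ICV_1003 lies nearest to vehicle for amino acid breakdown, ribosomal and oxidation genes, and highest of all arrays for acute-phase genes.

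Marker sums of several cell types differed between the groups. The summed signal of 4 macrophage markers was 2417 to 3815 in VEH-ICV and 6604 to 7704 in LEP-ICV, and LEP_ICV_1003, at 6722, lay within the range of the other treated livers. The sum of 2 neutrophil markers was 112 to 328 against 313 to 643, nearly apart, and of 2 red cell precursor markers 1815 to 2538 against 841 to 1647, without overlap. The sum of 5 hepatocyte markers was 160025 to 173158 in VEH-ICV. It was 179016 and 170899 on LEP_ICV_1003 and LEP_ICV_1014, and 106997 and 124565 on LEP_ICV_1017 and LEP_ICV_1019, the arrays of high background, below every control. The sum of 3 endothelial markers was 819 to 1213 against 997 to 1348, and of 3 stellate cell markers 821 to 933 against 477 to 975. Of 3 lymphocyte markers Cd3e and Nkg7 were undetected on all 8 arrays, as were all 3 adipocyte markers (Adipoq, Retn and Plin1) and the bile duct marker Krt19. Among 5 lymphocyte genes and 2 bile duct genes tested limma called none, also at an unadjusted p under 0.05, and no adipocyte gene was tested. The part of a change in cell makeup in the other results was not tested. Of 2 neutrophil genes S100a8 was called higher (adjusted p = 0.0257), undetected in VEH-ICV and at 6.03 to 7.52 in LEP-ICV, without a fold above its bound. Of 3 red cell precursor genes Slc4a1, the anion exchanger, fell by 2.21 (SE 0.43, adjusted p = 0.000926) and Alas2 changed by -0.49 (adjusted p = 0.122).

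Of 13 endothelial genes, 4 were called higher. They were Lyve1 (2.19, SE 0.65, adjusted p = 0.0162), Gpr182 (1.45, adjusted p = 0.0163), Clec4g (0.75, adjusted p = 0.00716) and Egfl7 (0.63, adjusted p = 0.0177, with probes that disagreed). None of them was called on low-background arrays, and Pecam1 (0.18, adjusted p = 0.727) and Stab2 (0.09, adjusted p = 0.753) did not pass. Of 15 stellate cell and collagen genes 5 were called higher and none lower, and on low-background arrays Timp1 alone was called. At an unadjusted p under 0.05, 8 were higher and 1 lower. The matrix protein Sparc rose by 2.83 (SE 0.72, adjusted p = 0.00666) at 6.41, 10.14, 10.74 and 8.49, LEP_ICV_1003 being within the control range of 5.54 to 7.17. Sparc was not called on low-background arrays (2.16, adjusted p = 0.148) or with the background class as a block (1.81, adjusted p = 0.0751). The protease inhibitor Timp1 was at least 1.40-fold higher (adjusted p = 0.000299), and Col4a1 (1.56, adjusted p = 0.0113), Lum (adjusted p = 0.0452, undetected in VEH-ICV) and Reln (0.68, SE 0.23, adjusted p = 0.0334) were also called. Lrat, the retinol-storing enzyme of stellate cells, changed by -0.65 (adjusted p = 0.244) and Col1a1 changed by 1.51 (adjusted p = 0.053). The stellate cell marker Des, detected on every array, averaged 8.65 in VEH-ICV and 7.56 in LEP-ICV.

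Of 17 hepatocyte identity genes 4 were called lower and 1 higher, and on low-background arrays 1 was called lower. Ttr (-0.30, adjusted p = 0.181) and Apoa1 (0.03, adjusted p = 0.913) were near the top of the signal range in both groups and Hnf4a changed by -1.12 (adjusted p = 0.0562). The probe for Alb read 10.97, 10.56, 11.58 and 11.47 in VEH-ICV and 10.37, 7.95, 6.54 and 8.16 in LEP-ICV, and it fell by 2.89 (SE 0.63, adjusted p = 0.00223). It was far dimmer than those of Ttr and Apoa1, with VEH-ICV means of 11.15 against 15.79 and 15.74. Whether this probe stands for all Alb RNA was not tested. Its call was lost without both high-background LEP-ICV arrays and kept under the other settings. The genes called lower were Alb, the nuclear receptors Nr5a2 (-1.45, adjusted p = 0.00944) and Nr1i3 (-1.28, adjusted p = 0.014) and the apolipoprotein Apoc3 (-0.62, SE 0.14, adjusted p = 0.00316). Fibrinogen Fga rose by 1.34 (SE 0.28, adjusted p = 0.00161). Of 24 complement and coagulation genes 3 were called lower and 1 higher, where 12% and 13.9% of all tested genes were. Antithrombin Serpinc1 (-1.83, SE 0.56, adjusted p = 0.02), Masp1 (-1.0, adjusted p = 0.000925) and C8g (-0.95, adjusted p = 0.00145) fell. Cfi (0.80, adjusted p = 0.0206) rose, with F2 at -0.09 (adjusted p = 0.804). Of 18 acute-phase genes 5 were called higher (3 on low-background arrays) and none lower. Lcn2, an iron-siderophore binder, read 10.43, 7.19, 9.26 and 7.90 against 10.87, 12.07, 13.38 and 9.78, a rise of 2.83 (SE 0.97, adjusted p = 0.0348) with overlap. Il1rn (1.88, adjusted p = 0.00108), Saa3 (1.85, adjusted p = 0.00561), Apcs (0.94, adjusted p = 0.0213) and Hp were the others, while Saa1 (0.52, adjusted p = 0.657) and Orm1 (-0.04, adjusted p = 0.948) did not pass.

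Glutathione transferases, which conjugate electrophiles, were called lower in 10 of 20 and higher in 2, with a median change of -0.56 and 6 called lower on low-background arrays. Gsta1 read 13.75, 13.69, 13.26 and 13.82 in VEH-ICV and 10.31, 11.55, 9.02 and 10.21 in LEP-ICV, and it fell by 3.36 (SE 0.59, adjusted p = 0.000356). Gstt3 read 13.34, 13.22, 13.43 and 13.21 against 10.80, 9.42, 9.90 and 10.17, and it fell by 3.23 (SE 0.26, adjusted p = 1.95e-08). Neither pair of groups overlapped, and LEP_ICV_1014 was the least changed for Gsta1 and the most changed for Gstt3. Gstm3 fell by 3.94 (SE 0.69, adjusted p = 0.000314), Gsta2 fell by 2.70 (SE 0.51, adjusted p = 0.000715) and Gstm1 fell by 1.27 (SE 0.25, adjusted p = 0.000998). Gstp1 (1.27, SE 0.35, adjusted p = 0.011, with probes that disagreed) and Gstm5 (0.71, SE 0.25, adjusted p = 0.0414) rose. Near-identical members of this family may share probe signal, which was not tested. Single members are then less certain, and the count may hold 1 change more than once.

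Drug-metabolizing cytochrome P450 genes were called lower in 8 of 22 and higher in none, with a median change of -0.66, and lower in 3 on low-background arrays. Cyp2c29 fell by 3.09 (SE 0.61, adjusted p = 0.000925), Cyp2d9 fell by 2.22 (SE 0.49, adjusted p = 0.00234), Cyp2c50 fell by 2.04 (SE 0.41, adjusted p = 0.00114), Cyp2c37 fell by 1.95 (SE 0.43, adjusted p = 0.00238) and Cyp1a2 fell by 1.08 (SE 0.28, adjusted p = 0.00742). Cyp3a11 spread widely in both groups, at 9.45, 7.74, 8 and 5.6 in VEH-ICV and 8.69, 11.47, 14.23 and 7.13 in LEP-ICV, and its change of 2.68 did not pass (SE 1.15, adjusted p = 0.0837). Cyp2b10 changed by -1.98 (adjusted p = 0.0654). Bile acid genes were called lower in 5 of 17 and higher in 1, and Slc10a1 alone was called on low-background arrays. Slc10a1, the sodium-driven bile acid importer, read 9.43, 9.92, 9.90 and 9.17 against 8.27, 6.10, 6.31 and 6.67, and it fell by 2.76 (SE 0.40, adjusted p = 4.36e-05). The importer Slco1b2 (-2.14, adjusted p = 0.0344), Slc27a5 (-1.53, adjusted p = 0.00118) and Baat (-1.10, adjusted p = 0.00142) of bile acid conjugation, and the reductase Akr1d1, undetected in LEP-ICV (adjusted p = 0.0174), were the other genes called lower, and Cyp7b1 rose by 1.04 (adjusted p = 0.0364). Cyp7a1, which sets the rate of bile acid synthesis, changed by -0.78 (SE 0.74, adjusted p = 0.435) and Cyp8b1 by -1.41 (adjusted p = 0.0879).

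Genes known to differ between male and female mouse liver fell on both sides. Of 13 genes more abundant in females, the sex of these mice, 6 were called lower (4 on low-background arrays) and none higher. Hao2, a hydroxyacid oxidase, was undetected in LEP-ICV at 4.61 to 5.07 and stood at 8.17 to 9.32 in VEH-ICV, at least 4.97-fold lower under leptin (adjusted p = 9.76e-06). The estrogen sulfotransferase Sult1e1 was lower by at least 3.32-fold (adjusted p = 6.65e-05) and the related Sult3a1 by at least 2.20-fold (adjusted p = 0.00809). Cyp17a1, of steroid synthesis, fell by 2.70 (SE 0.46, adjusted p = 0.00027). Cyp2b9, a female-abundant P450, changed by 0.27 (adjusted p = 0.564). Of 13 genes more abundant in males 3 were called lower, Cyp2d9, Selenbp2 (-1.89, SE 0.31, adjusted p = 0.000177) and Elovl3, at least 1.01-fold (adjusted p = 0.0307), and Cyp7b1 was called higher. Cyp4a12a changed by -0.78 (adjusted p = 0.358).

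The other genes with the largest changes have less settled roles in liver. Lrtm1, a leucine-rich repeat membrane protein, read 11.43, 11.16, 11.28 and 11.55 in VEH-ICV and 6.94, 4.82, 4.90 and 5.22 in LEP-ICV, and it fell by 5.89 (SE 0.60, adjusted p = 8.56e-07). Chrna4, a nicotinic acetylcholine receptor subunit, read 8.93, 11.31, 11.73 and 10.17 against 5.09, 4.98, 5.17 and 4.84. Undetected on every LEP-ICV array, it was at least 19-fold lower (adjusted p = 1.94e-07), and LEP_ICV_1003 was as low as the rest. Gm4956 was at least 16.2-fold lower (adjusted p = 1.95e-08) and Pla2g4f, a phospholipase, was lower by at least 12-fold (adjusted p = 1.27e-09), both undetected in LEP-ICV, and Fam83f fell by 3.61 (SE 0.40, adjusted p = 2.27e-06). Among the increases were the endothelial and macrophage adhesion molecule Vcam1 (3.36, SE 0.67, adjusted p = 0.00111), Tceal9 (3.10, SE 0.53, adjusted p = 0.000288) and the cathepsin inhibitor Cstb (2.86, SE 0.55, adjusted p = 0.00079). Cstb stood at 9.28 to 10.40 in VEH-ICV and at 10.87, 13.11, 13.23 and 12.78 in LEP-ICV. Tceal9 was not called on low-background arrays (2.37, adjusted p = 0.0615).

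Lysosomal genes were called higher in 12 of 30 and lower in 2, with a median change of 0.54, or 0.31 with undetected genes at their bounds, and higher in 9 on low-background arrays. Lamp1 rose by 1.78 (SE 0.35, adjusted p = 0.000891), Cd63 rose by 1.78 (SE 0.45, adjusted p = 0.00604), the proton pump subunit Atp6v1b2 rose by 1.56 (SE 0.32, adjusted p = 0.00124) and the peptide transporter Slc15a3 rose by 1.53 (SE 0.26, adjusted p = 0.00027). Cd63 is also in the macrophage list. Rilp (-1.06, SE 0.19, adjusted p = 0.000412) and the acid lipase Lipa (-0.81, SE 0.29, adjusted p = 0.039) fell, and the protease Ctsd changed by -1.01 (adjusted p = 0.0916). Of 16 autophagy genes 4 were called higher and 3 lower, and on low-background arrays 1 each, Gabarapl1 and Atg7. Gabarapl1 rose by 1.78 (SE 0.28, adjusted p = 0.000138) without overlap, Gabarap rose by 1.86 (SE 0.67, adjusted p = 0.0428), Sqstm1 rose by 1.84 (SE 0.59, adjusted p = 0.0248) and Pik3c3 rose by 0.70 (SE 0.23, adjusted p = 0.0313). Atg7 (-1.18, adjusted p = 0.00535), Atg5 (-0.80, SE 0.17, adjusted p = 0.0023) and Wipi1 (-0.73, SE 0.23, adjusted p = 0.024, with probes that disagreed) fell, and Map1lc3b changed by -0.54 (adjusted p = 0.316).

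Cytosolic ribosomal protein genes were called higher in 30 of 56 and lower in none, with a median change of 0.87. On low-background arrays 5 were called higher, and without LEP_ICV_1017 there were 19. Rplp1 read 12.69, 11.45, 11.79 and 11.64 in VEH-ICV and 12.76, 14.71, 15.43 and 14.09 in LEP-ICV, a rise of 2.36 (SE 0.48, adjusted p = 0.00124). LEP_ICV_1003 stood 0.07 above the highest control. Rps4x (2.43, SE 0.62, adjusted p = 0.00665), Rpl9 (2.13, SE 0.58, adjusted p = 0.00997) and Rps12 (2.03, SE 0.38, adjusted p = 0.000605) were also called higher, with LEP_ICV_1003 under the highest control for Rps4x. Rplp0, whose probe was undetected in VEH-ICV, was at least 1.83-fold higher (adjusted p = 0.000653) and was not called on low-background arrays. Rps6 did not pass (1.72, adjusted p = 0.0662). Over the 56 genes the median signal was 0.21 above the VEH-ICV mean in LEP_ICV_1003, 1.43 in LEP_ICV_1014, 0.92 in LEP_ICV_1017 and 0.65 in LEP_ICV_1019, against -0.29 to 0.23 in VEH-ICV.

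Oxidative phosphorylation subunits were called lower in 14 of 69 and higher in 6, and in 3 and 2 on low-background arrays. Ndufb4 of complex I fell by 2.35 (SE 0.60, adjusted p = 0.00653), Ndufb5 fell by 1.70 (SE 0.39, adjusted p = 0.00327), Atp5e fell by 1.63 (SE 0.47, adjusted p = 0.0144) and cytochrome c, Cycs, fell by 1.58 (SE 0.44, adjusted p = 0.012). None of these 4 was called without both high-background LEP-ICV arrays. Cox6a2, a subunit of heart and muscle, was undetected in VEH-ICV and at least 1.24-fold higher in LEP-ICV (adjusted p = 0.00027). Of 33 proteasome subunits 9 were called higher and 2 lower, none of them on low-background arrays. Psma5 (1.34, SE 0.34, adjusted p = 0.00655), Psmb4 (1.11, adjusted p = 0.00283) and Psmd10 (0.96, adjusted p = 0.0187) rose, Psmd2 (-1.17, adjusted p = 0.018) and Psmb7 (-0.76, SE 0.20, adjusted p = 0.00815, with probes that disagreed) fell, and Psmd1 changed by -0.36 (adjusted p = 0.352).

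Of 20 interferon-induced genes 7 were called higher and 1 lower, and on low-background arrays Usp18 alone was called. Usp18, which removes Isg15 and damps interferon signalling, read 8.31, 6.77, 8.06 and 8.31 against 10.36, 10.82, 10.59 and 10.61, a rise of 2.74 (SE 0.28, adjusted p = 9.53e-07). The treated livers spread over 0.47, and LEP_ICV_1003 was no exception. Oas1g (1.16, adjusted p = 0.00872) rose, Ifit2 (adjusted p = 0.0157) was undetected in VEH-ICV and called higher, Isg20 was lower by at least 1.66-fold (adjusted p = 0.0114), and Irf7, their regulator, changed by 0.19 (adjusted p = 0.722). Of 11 cell cycle genes 4 were called higher and none lower, and on low-background arrays Ccnd1 alone. Cyclin D1, Ccnd1, rose by 2.08 (SE 0.42, adjusted p = 0.00114), from 10.72 to 11.40 in VEH-ICV to 12.81 to 13.86 in LEP-ICV, with Cdkn1a (1.92, adjusted p = 0.0313), Mcm4 (1.09, adjusted p = 0.0195) and Pcna (adjusted p = 0.0056, undetected in VEH-ICV). None of 12 circadian clock genes was called. At an unadjusted p under 0.05, 1 of the 12 was higher and none lower. Arntl (-0.96, adjusted p = 0.127) was called lower on low-background arrays (-1.12, adjusted p = 0.0286), while Per2 (-0.50, adjusted p = 0.523) and Dbp (-0.21, adjusted p = 0.884) were not.

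**Figure D5:**
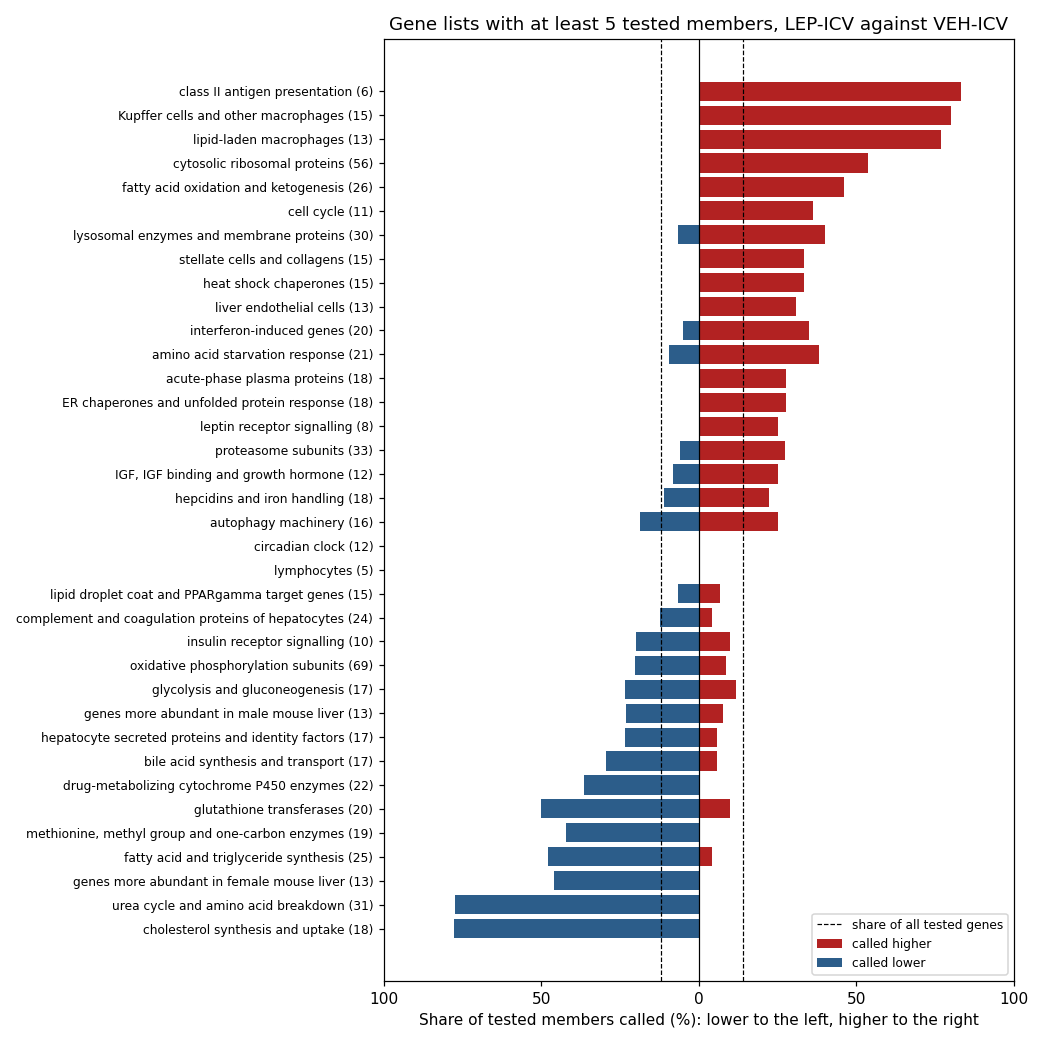
Bars give the share of tested members of each gene list called higher (red, to the right) or lower (blue, to the left), for lists with at least 5 tested members, whose number is in brackets. Dashed lines mark the shares of all tested genes, 13.9% higher and 12% lower. Cholesterol synthesis and amino acid breakdown reach farthest to the left, and class II and macrophage lists farthest to the right.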

How the data were processed

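Liver RNA of 26 mice was read on Illumina MouseRef-8 v2.0 bead arrays, 1 array per mouse, and 8 arrays entered the comparison. The authors deposited, from BeadStudio, a raw intensity per probe and a detection score between 0 and 1, and subtracting the score from 1 gave a detection p-value. They also deposited log2 values after their own variance stabilization and spline normalization, which served as an alternative. Precision is limited by the number of arrays.

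Background correction and quantile normalization of the intensities used neqc of limma 3.58.1 in R 4.3.3 (offset 16). Of 25697 probes 11001 were detected at p under 0.01 on at least 4 arrays, and 662 of these have no gene symbol in the platform annotation used here and were left out. Where a gene's probes disagreed in direction, the text says so. The 6 groups of all 26 arrays were fitted with lmFit and eBayes, and p-values were adjusted over 7953 genes. The fit was also run on the 12 low-background arrays. It was tried on simulated data with the same spread in every group, which does not cover the unequal spread of these groups. Chip and scan date are not given in the sources used here.

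Genes were named by rule. They were 5 marker genes, the 10 largest called and non-overlapping increases and decreases detected on every array of the higher group, and, for each list, its key genes and up to 4 called members with the largest change. A further 28 genes were named after their values were seen, among them Hmgcs1, Chac1, Psat1, Sqle and Ass1. The members, lists and tests were chosen with earlier results of these data known. Promoter sequences came from RefSeq (GRCm38.p6). Settings tried were other background correction, scaling, filters, array sets, array weights, background class as a block, and leaving out each array.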

Additional observations from a re-analysis of the deposited data

Results flagged for a closer look

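The leptin effect differed between brain and subcutaneous infusion for 30 of the 225 named genes (limma interaction contrast, adjusted p under 0.05), and for 149 of 7953 genes overall (1.87%). Most of the 225 were named for their change under brain leptin, which is part of this contrast, so their larger share was built in. All subcutaneous leptin arrays were of high background and all subcutaneous vehicle arrays of low background, so there route and background cannot be told apart. Asns, Mmp12, Trem2, Atf3, Aldh18a1, Timp1, Gm4956 and Elovl3 were undetected on all arrays of LEP-ICV or VEH-ICV, so their values are differences of fitted signals near background and their sizes are not measured. As brain effect minus subcutaneous effect on the log2 scale, the difference was above 0 for Gpnmb (4.28), Mmp12 (4.16), Trem2 (2.97), Cd63 (2.86) and Lgals3 (2.23) of macrophages, and for Fgf21 (3.3), Asns (3.27), Nupr1 (3.1), Atf3 (3.05) and Aldh18a1 (1.96) of the amino acid response. It was also above 0 for Ccnd1 (2.41), Timp1 (2.28) and Pnpla2 (1.15). It was below 0 for the lipid and sterol genes Srebf1 (-4.47), Sqle (-3.49), Stard4 (-2.9), Elovl3 (-2.63) and Acss2 (-2.35). Of these, Srebf1, Sqle and Elovl3 had subcutaneous effects of 2.65, 2.01 and 1.52 against brain effects of -1.82, -1.48 and -1.11, so most of their difference lay in the subcutaneous rise. It was below 0 also for Hamp2 (-3.47), Gm4956 (-3.39) and Lrtm1 (-3.34). The liver enzymes Cyp2c50 (-2.33), Prodh (-1.98), Gstt3 (-1.94), Slc27a5 (-1.69), Cyp1a2 (-1.52) and Ass1 (-1.29), with Alas2 (-1.36), Ghr (-1.32) and Masp1 (-1.23), were below 0 as well.

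A single array stood far from the other 3 of its group in 17 of 454 groups looked at, where chance gives about 1 in 20. Among vehicle arrays these were VEH_ICV_1002 for Mmp12 (6.73), Fga (14.19) and Atp6v1b2 (9.58), VEH_ICV_1010 for C1qb (7.59), Usp18 (6.77), H2-Eb1 (7.44) and Atg5 (11.98), VEH_ICV_1011 for Idi1 (10.5) and for background (109.3), and VEH_ICV_1012 for Gpr182 (6.52) and Fbp1 (10.3). Among leptin arrays they were LEP_ICV_1003 for Thrsp (7.55), Lrat (7.08) and Leprot (9.28), LEP_ICV_1014 for Egfr (11.37) and Reln (12.63), and LEP_ICV_1017 for Hp (15.83).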

How the results depend on the processing

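The main counts were 1108 genes higher and 952 lower. Fitting the 8 arrays alone gave 291 and 253, array weights 1703 and 1636, and background class as a block 601 and 446. Median scaling gave 1586 and 286, with 84.7% of the calls higher in place of 53.8%, and turned the median change of the male-abundant, clock, insulin signalling, bile duct and complement lists from below to above 0. Leaving out both high-background LEP-ICV arrays, a setting added after seeing the data, gave 392 and 299. Leaving out 1 array gave 720 to 1541 higher and 511 to 1405 lower, the lowest without LEP_ICV_1017 and the highest without LEP_ICV_1003. On low-background arrays, with 250 higher and 232 lower, fitting only the 2 LEP-ICV and 4 VEH-ICV arrays gave 47 and 36. Leaving out 1 array there gave 13 to 980 higher and 19 to 902 lower, the lowest without LEP_ICV_1014 and the highest without LEP_ICV_1003. Either leaves 1 leptin array, which is assumed to vary like the other groups. Without VEH_ICV_1010, VEH_ICV_1011 or VEH_ICV_1012 it gave 89, 68 or 111 higher and 102, 61 or 117 lower. Some of these fits hold fewer arrays, and why the counts differ was not tested. Of 176 called genes among the 225 named, 66 kept their call under every setting run. Among the called genes Psmb7 turned its direction, to 0.73 as the mean of its probes, and some uncalled genes, such as Hamp and Tfrc, changed sign. No paired analysis was possible because the replicate numbers are animal numbers, which the groups do not share. Dim probes limit the genes given as bounds.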
